A study of Mus musculus with 44 samples.

Results

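The 8 genes described here are Moxd1, Dct, Vmn2r3, Chrna4, Atp2b2, Fam83f, Rfx4 and Tmc5, which were listed because they are not typical of liver and had large differences with diet or knockout in these same libraries. They are 8 of the 35249 genes in the count table, and all 8 were among the 14862 genes with enough reads to be tested. They were chosen by their counts in all 9 groups, which are the values reported below, so those values, and the calls made on them, are a description and support nothing further. The study sequenced RNA from mouse liver, in mice that were wild type (WT) or carried a knockout of Ripk3 (Ripk3-/-, Ripk3KO) or of Mlkl (Mlkl-/-, MlklKO). Diets began at 2 months of age and lasted 6 months: normal chow as control diet, or choline-deficient feed that was either low in fat (CD-LFD) or high in fat (CD-HFD). There were 6 libraries in each WT group. Ripk3KO had 6 control, 3 CD-LFD and 4 CD-HFD libraries, and MlklKO had 6 control, 4 CD-LFD and 3 CD-HFD libraries. The labels give no strain, sex, litter or batch, and p-values measure only the spread between these libraries.

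Ripk3 is a kinase and Mlkl the protein it phosphorylates to break the plasma membrane in necroptosis, a form of cell death that releases cell contents and attracts immune cells. Choline is needed to make the phospholipid with which the liver exports fat, so diets that lack it lead to fatty liver, and the study set out to ask what necroptosis contributes to inflammation and tumours there. The listed genes belong to other tissues in textbook accounts. Dct is an enzyme of melanin synthesis in pigment cells, Vmn2r3 a pheromone receptor of the vomeronasal organ, Chrna4 a subunit of the brain's nicotinic acetylcholine receptors, Atp2b2 a calcium pump of hair cells and neurons, and Rfx4 a transcription factor of developing brain and testis. Moxd1 is a copper-dependent monooxygenase related to the enzyme that makes noradrenaline, Fam83f is a scaffold protein of a family that binds casein kinase, and Tmc5 is a member of the transmembrane channel-like family.

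Levels are in CPM, the reads of a gene relative to its library total, with totals scaled by TMM, and differences are on the log2 scale with the standard error (SE) of the edgeR fit over all 44 libraries. Total counts were 2476268 to 12471844 in 43 libraries and 88204703 in WT CD-LFD replicate 3, whose floor for a low gene is therefore much lower than that of the others. Ripk3 was at 0 to 0.325 CPM in the Ripk3KO libraries except for control replicate 5 at 1.26 CPM, against 0.510 to 4.88 CPM in WT. Mlkl was lower in MlklKO than in WT on both choline-deficient diets, at 2.98 to 4.15 against 9.84 to 14.5 CPM on CD-LFD, with the highest MlklKO CD-HFD value, 12.5 CPM, in replicate 1. On control diet its ranges overlapped, 1.46 to 3.03 against 2.28 to 6.14 CPM. Some results that use the library labelled Ripk3KO control replicate 5 or MlklKO CD-HFD replicate 1 are also given without both of these doubtful libraries. The 5 hepatocyte markers summed to 52750 to 151500 CPM per library, so the defining hepatocyte genes were abundant in every library labelled liver.

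A gene was called in a comparison when its adjusted p by edgeR's quasi-likelihood test was under the threshold of 0.05, and groups are said to overlap when their per-library ranges do. Between CD-HFD and control diet, 5 of the 8 genes were called in WT (47.7% of all tested genes were), 7 in Ripk3KO (46.3%) and 7 in MlklKO (45.2%). Between CD-LFD and control diet, 4 were called in WT (27.7% of all genes), 4 in Ripk3KO (24.1%) and 6 in MlklKO (37.9%). Between CD-HFD and CD-LFD, 3 were called in WT (21.1%), 1 in Ripk3KO (8.83%) and 2 in MlklKO (23.7%). For knockout against WT on control diet, 3 were called in Ripk3KO (4.47%) and 3 in MlklKO (27.1%). On CD-LFD, 1 was called in Ripk3KO (1.1%) and 2 in MlklKO (2.56%). On CD-HFD none was called in Ripk3KO (0.377% of all genes) or MlklKO (0%), and none of the 8 had an unadjusted p under 0.05. Of all genes edgeR called 0 for MlklKO on CD-HFD, and 1246 had an unadjusted p under 0.05. The rule used these contrasts, so nothing is read from the counts. Fam83f and Tmc5 were called in none of the 3 WT diet comparisons, and were called with diet in the knockouts.

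**Figure D1:**
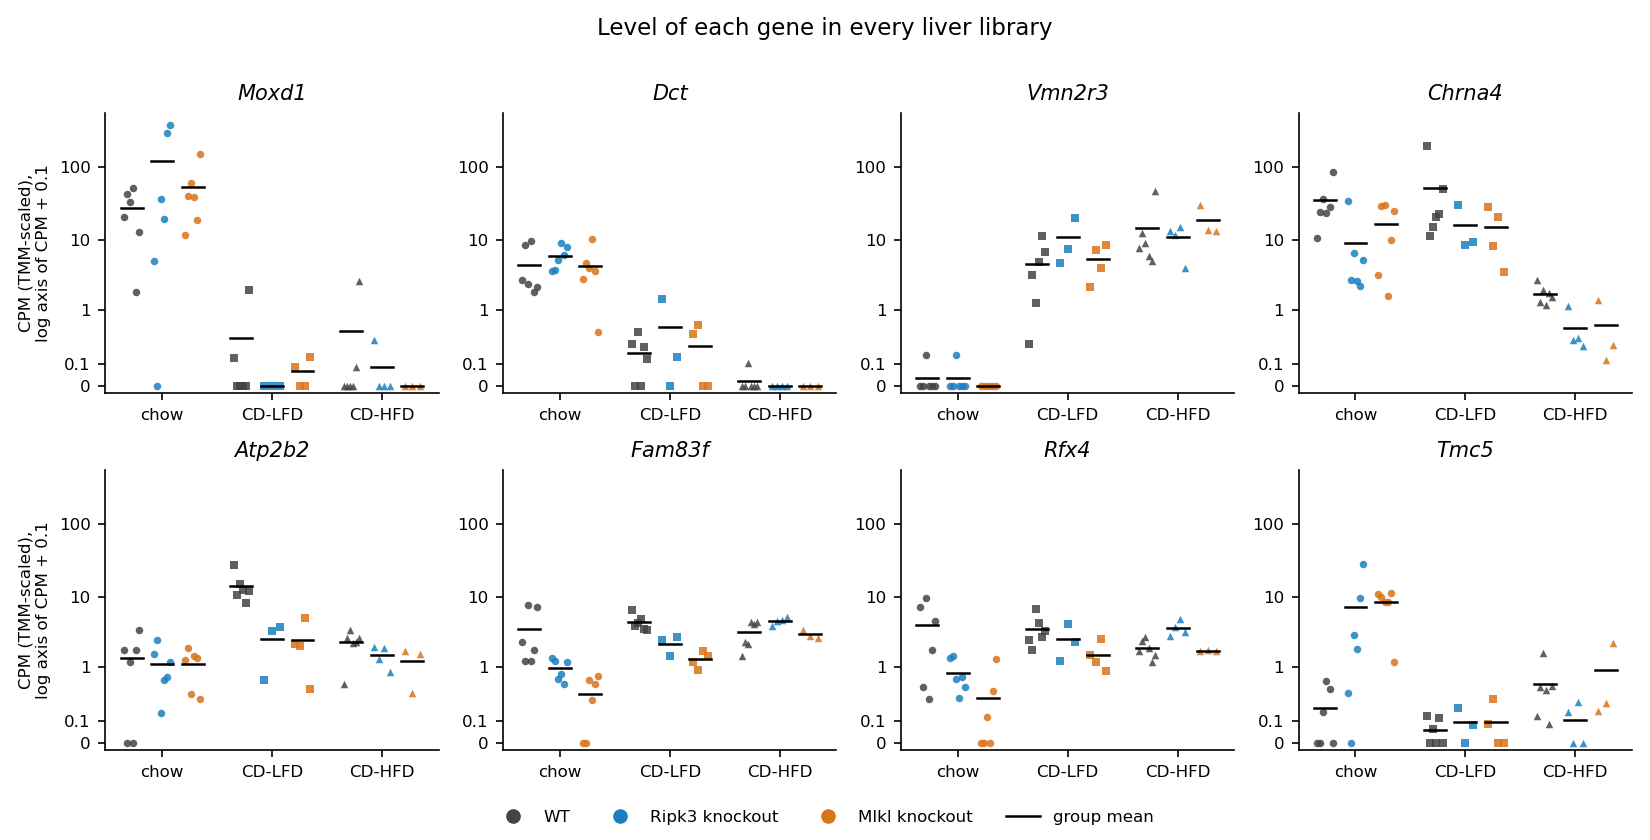
Level of each of the 8 genes in every library, as TMM-scaled CPM on a log axis of CPM + 0.1, by diet (chow is the control diet) and genotype (grey WT, blue Ripk3 knockout, orange Mlkl knockout), with a bar at each group mean. Moxd1 and Dct are high on chow, Vmn2r3 is high on both choline-deficient diets, Chrna4 is low on CD-HFD, and Tmc5 is high in knockout mice on chow.

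Moxd1 and Dct were both present on control diet and close to absent on the choline-deficient diets in all 3 genotypes. Their promoters are shown because these genes were lost on the same diets. Each line holds the 250 bases before the RefSeq transcription start (build GRCm38.p6, 5′ to 3′ in the direction of transcription), and capitals mark matches, on either strand, to the 6 motifs listed further on. The Moxd1 stretch is chr10:24223267-24223516 on the plus strand and the Dct stretch chr14:118052247-118052496 on the minus strand.
Moxd1: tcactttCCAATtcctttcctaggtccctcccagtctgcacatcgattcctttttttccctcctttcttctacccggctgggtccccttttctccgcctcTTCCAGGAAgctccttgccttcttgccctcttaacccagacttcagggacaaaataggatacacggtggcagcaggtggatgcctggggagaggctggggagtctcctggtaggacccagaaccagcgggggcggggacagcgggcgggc
Dct: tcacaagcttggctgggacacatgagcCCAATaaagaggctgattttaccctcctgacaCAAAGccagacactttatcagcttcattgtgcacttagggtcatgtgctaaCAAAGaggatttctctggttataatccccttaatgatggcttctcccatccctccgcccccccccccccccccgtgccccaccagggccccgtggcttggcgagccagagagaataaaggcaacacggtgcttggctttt
In Moxd1 the capitals are the CCAAT box at position -243 and the STAT5 motif TTCNNNGAA at -150 from the start. In Dct they are the CCAAT box at -223 and the HNF4 core site CAAAG at -191 and -140.

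Moxd1 (ENSMUSG00000020000, chromosome 10) had 7030 reads in total, in 24 of the 44 libraries. In WT control livers the lowest, median and highest levels were 1.82, 27.1 and 52.5 CPM. On CD-LFD 4 of the 6 WT libraries had no read, and the others had 0.139 CPM (replicate 1) and 1.99 CPM (replicate 6). On CD-HFD 4 of 6 again had none, and the others had 0.0804 CPM (replicate 5) and 2.68 CPM (replicate 6). So replicate 6 was the highest library on both diets, and in both cases it exceeded the lowest WT control library, replicate 5, so the groups overlapped. The mean was 59.4-fold lower on CD-HFD than on control diet and 76.8-fold lower on CD-LFD. The fitted log2 differences were -5.81 (SE 1.16) and -7.07 (SE 1.34). Without WT CD-HFD replicate 6 the first was -9.60, and the second was -10.20 without WT CD-LFD replicate 6 and -5.83 without the deeply sequenced replicate 3.

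In Ripk3KO control livers Moxd1 spanned 0 to 379 CPM around a median of 28.2 CPM, the widest range of any of the 8 genes in any of the 9 groups. Replicate 2 had no read, and replicates 5 and 6 had 297 and 379 CPM. All 3 Ripk3KO CD-LFD libraries had no read, and on CD-HFD 2 reads were found in replicate 1 (0.332 CPM) and none in the other 3 libraries. The zero in control replicate 2 made the ranges overlap. The control mean of 123 CPM was at least 935-fold higher than on CD-LFD, against 3 counts over that group. Against the 2 reads on CD-HFD it was 2358-fold higher, with an exact Poisson 95% interval of 653 to 19470. Such intervals and floors cover counting error only. The fitted differences were -13.09 (SE 2.55) for CD-LFD and -10.84 (SE 1.80) for CD-HFD. Without Ripk3KO control replicate 6 they were -12.34 and -10.08, the second was -13.10 without Ripk3KO CD-HFD replicate 1, and without the 2 doubtful libraries they were -12.61 and -10.35.

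MlklKO control livers had 11.6 to 151 CPM of Moxd1 (median 40.0 CPM), with every library above 0. The 4 CD-LFD libraries held 2 reads in all, 1 each in replicates 1 and 4, and the 3 CD-HFD libraries held none. Here the control group stood apart from both choline-deficient groups. The control mean of 53.8 CPM was 847-fold higher than on CD-LFD (exact Poisson 95% interval 235 to 6994 on the 2 reads) and at least 375-fold higher than on CD-HFD. Fitted differences were -9.45 (SE 1.83) and -11.90 (SE 2.62), or -8.80 and -11.26 without MlklKO control replicate 6. On control diet the differences of Moxd1 from WT, 2.15 (SE 0.812) in Ripk3KO and 0.97 (SE 0.796) in MlklKO, were not called, and the first was 1.67 without the 2 doubtful libraries. They were 1.39 without Ripk3KO control replicate 6 and 0.32 without MlklKO control replicate 6, and 1 of the 12 leave-one-out fits of the first was called. Nor was the WT difference between the choline-deficient diets, 1.26 (SE 1.92), whose sign rested on single libraries, at -2.53 without WT CD-HFD replicate 6 and 4.39 without WT CD-LFD replicate 6. The knockouts had too few reads on these diets to compare them. Per kilobase of exon the mean control level of Moxd1 was 8.54 CPM/kb in WT, 38.4 in Ripk3KO and 16.8 in MlklKO, at percentiles 73.1, 91.6 and 83.9 of the tested genes, while Alb, the main hepatocyte transcript, was at 36700 CPM/kb in WT.

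Dct (ENSMUSG00000022129, chromosome 14) was a low gene, with 548 reads in 27 libraries. Its WT control levels were 1.82 to 9.51 CPM around a median of 2.57 CPM. On CD-LFD the WT libraries ran from 0 to 0.447 CPM (median 0.190 CPM), and on CD-HFD a single read was found in replicate 3 and none in the other 5. Both choline-deficient WT groups lay wholly under the control group. The CD-LFD mean was 24.6-fold lower than control (log2 -3.96, SE 0.629). Against the single CD-HFD read the control mean was 255-fold higher, with an exact Poisson 95% interval of 45.7 to 10070 (log2 -7.14, SE 0.910). Without WT CD-LFD replicate 3 the first difference was -4.78, and without WT CD-HFD replicate 3 the second was -8.32.

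In the knockouts too the mean of Dct was highest on control diet and lowest on CD-HFD. Ripk3KO had 3.69 to 9.12 CPM on control diet (median 5.67 CPM), then 1.46, 0 and 0.151 CPM in the 3 CD-LFD libraries, and no read in any of the 4 CD-HFD libraries. The Ripk3KO groups did not overlap with control on either diet. The control mean was 11.2-fold higher than on CD-LFD (log2 -3.72, SE 0.832) and at least 76.4-fold higher than on CD-HFD (log2 -8.73, SE 1.17). The CD-LFD difference was -5.63 without Ripk3KO CD-LFD replicate 1 and -3.01 without replicate 3. MlklKO had 0.447 to 10.3 CPM on control diet (median 3.87 CPM), 0.423, 0.595, 0 and 0 CPM on CD-LFD, and no read on CD-HFD. The lowest MlklKO control library, replicate 6, lay under the highest CD-LFD library, so those groups overlapped. The control mean was 17.1-fold higher than on CD-LFD (log2 -3.91, SE 0.763) and at least 30.4-fold higher than on CD-HFD (log2 -8.28, SE 1.47). Dct was lower on CD-HFD than on CD-LFD by a fitted -3.18 (SE 1.19) in WT, not called here but called with DESeq2 (-3.01), with the replicate block (-3.29) and with a clock-gene covariate explained further on (-3.97). It was -4.36 without WT CD-HFD replicate 3 and -2.19 without WT CD-LFD replicate 3, and 3 of its 12 leave-one-out fits were called. The same step was -5.01 (SE 1.78) in Ripk3KO and -4.37 (SE 2.21) in MlklKO, neither called here. Each rested on 9 CD-LFD reads, and 1 and 0 of their 7 leave-one-out fits were called. On control diet the differences from WT, 0.41 (SE 0.496) for Ripk3KO and -0.04 (SE 0.501) for MlklKO, were not called.

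The genes that define pigment cells were at low levels. Of the 5 melanocyte markers looked for (Tyr, Tyrp1, Pmel, Mlana, Sox10), 3 were in the table and 0 passed the filter on low counts, and their summed level was at most 1.02 CPM in any library. Tyr, the enzyme that starts melanin synthesis, had 3 reads in all 44 libraries together and was at 0 in 7 of the 9 groups. Among the melanin genes that missed the filter, Slc24a5, an ion exchanger of pigment cell organelles, had the most reads, 256 in 43 libraries, and at most 1.67 CPM. The melanocyte sum had a median of 0.478 CPM on WT control diet, 0.394 CPM on CD-LFD and 0.315 CPM on CD-HFD. In the same order of diets the medians were 0.596, 0.832 and 0.505 CPM in Ripk3KO and 0.458, 0.463 and 0.261 CPM in MlklKO. Mitf, the transcription factor that activates melanin genes and is also made in macrophages, moved opposite to Dct on CD-HFD. It rose in WT from 4.83 to 10.8 CPM (log2 1.16, SE 0.212, edgeR adjusted p = 1.68e-05), in Ripk3KO (1.19, adjusted p = 3.91e-05) and in MlklKO (1.15, adjusted p = 0.000146). Pam, the copper monooxygenase that amidates peptides and the only tested relative of Moxd1, also rose on CD-HFD, from 21.4 to 42.5 CPM in WT (log2 0.98, SE 0.270, edgeR adjusted p = 0.00272). Its rise was 1.44 in Ripk3KO (adjusted p = 9.36e-05) and 1.42 in MlklKO (adjusted p = 0.000238). Dbh, the noradrenaline enzyme that Moxd1 resembles, had 3 reads in all libraries.

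**Figure D2:**
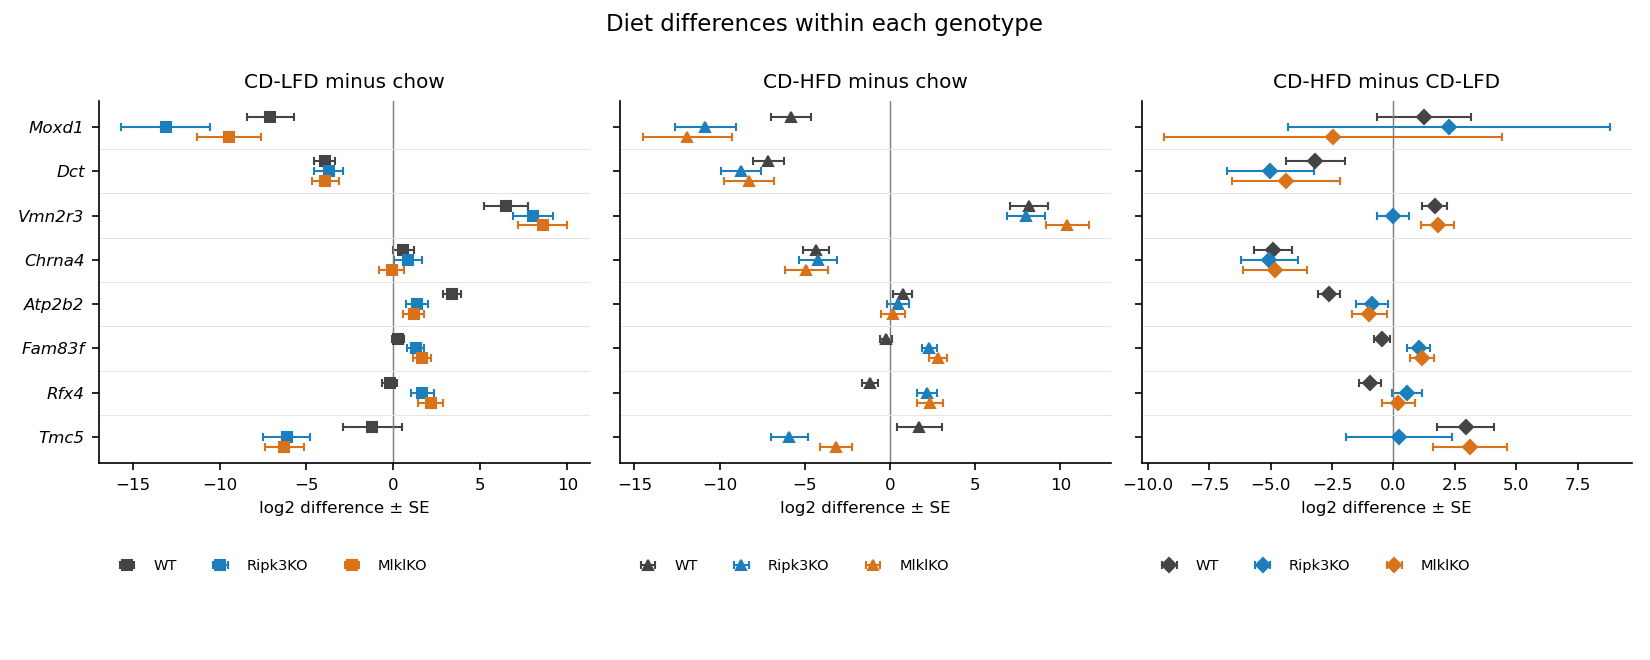
Log2 difference ± SE of each gene between diets within WT (grey), Ripk3KO (blue) and MlklKO (orange), for CD-LFD minus chow, CD-HFD minus chow and CD-HFD minus CD-LFD; chow is the control diet. Moxd1 and Dct lie left of 0 and Vmn2r3 right of 0 in both comparisons with chow, Chrna4 lies left of 0 in both comparisons with CD-HFD, and Fam83f, Rfx4 and Tmc5 place the knockouts apart from WT.

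Vmn2r3 showed the reverse pattern, almost absent on control diet and present on both choline-deficient diets. Its stretch before the start, chr3:64287418-64287667 on the minus strand, and that of Chrna4, chr2:181039178-181039427 also on the minus strand, are shown beside those of Moxd1 and Dct because these genes moved in other directions. Neither holds any of the 6 motifs, so no letter is in capitals.
Vmn2r3: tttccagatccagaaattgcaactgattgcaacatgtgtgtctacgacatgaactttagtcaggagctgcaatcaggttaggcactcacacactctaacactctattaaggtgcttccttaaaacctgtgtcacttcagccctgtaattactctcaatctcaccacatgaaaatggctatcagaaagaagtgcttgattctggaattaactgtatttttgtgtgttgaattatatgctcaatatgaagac
Chrna4: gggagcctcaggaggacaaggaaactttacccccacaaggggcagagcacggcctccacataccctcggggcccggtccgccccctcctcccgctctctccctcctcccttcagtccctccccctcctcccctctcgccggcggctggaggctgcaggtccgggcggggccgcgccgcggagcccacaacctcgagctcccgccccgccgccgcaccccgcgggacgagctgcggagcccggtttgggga
They also differ in base composition: over the 300-base windows, which run on to 50 bases after the start, Vmn2r3 had 38.3% G or C and 2 CpG, and Chrna4 had 74.3% and 33 CpG. Moxd1 had 61.7% and 13 CpG and Dct 53.3% and 5 CpG, against medians of 52.7% and 7 CpG over all 32851 promoter windows.

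Vmn2r3 (ENSMUSG00000091572, chromosome 3) had 2391 reads in 28 libraries, of which 1 read was in WT control replicate 3, 1 in Ripk3KO control replicate 3 and none in MlklKO control livers. WT CD-LFD livers had 0.279 to 11.5 CPM (median 4.13 CPM), and WT CD-HFD livers 5.15 to 46.6 CPM (median 8.44 CPM). Every WT library on a choline-deficient diet lay above every WT control library. Against the single control read the CD-HFD mean of 14.6 CPM was 390-fold higher (exact Poisson 95% interval 70.0 to 15390) and the CD-LFD mean of 4.68 CPM was 125-fold higher (22.5 to 4950). The fitted differences were 8.15 (SE 1.10) and 6.47 (SE 1.26). They were 10.02 and 8.35 without WT control replicate 3, the only control library with a read, and the first was 7.31 without WT CD-HFD replicate 6.

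In Ripk3KO the CD-LFD libraries had 4.78, 7.58 and 20.1 CPM of Vmn2r3, and the CD-HFD libraries 13.3, 11.7, 15.2 and 4.0 CPM. These groups overlapped each other and both stood apart from control. Against the single control read the means were 365-fold higher on CD-LFD (exact Poisson 95% interval 65.5 to 14420) and 373-fold higher on CD-HFD (67.0 to 14740). Replicate 3 of the CD-LFD group, the library at 20.1 CPM, also stood apart in Xist, the RNA of the inactive X chromosome, at 10.9 CPM against at most 2.09 CPM in every other library. Its part in the Vmn2r3 values was not tested beyond leaving it out. The fitted differences from control were 8.01 (SE 1.16) for CD-LFD and 7.98 (SE 1.12) for CD-HFD, or 9.65 and 9.62 without Ripk3KO control replicate 3. Without Ripk3KO CD-LFD replicate 3 the first was 7.13, and without the 2 doubtful libraries they were 7.78 and 7.76. In MlklKO the CD-LFD libraries had 2.20, 7.14, 4.0 and 8.62 CPM, and the CD-HFD libraries 30.3, 13.6 and 13.2 CPM. With no read on control diet, the MlklKO means were at least 69.7-fold higher on CD-LFD (log2 8.58, SE 1.42) and at least 241-fold higher on CD-HFD (log2 10.39, SE 1.26). The CD-HFD difference was 9.90 without the 2 doubtful libraries.

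A step from CD-LFD to CD-HFD in Vmn2r3 was called in WT (log2 1.68, SE 0.519) and MlklKO (1.81, SE 0.667), with a value of -0.03 (SE 0.650) in Ripk3KO that was 0.85 without Ripk3KO CD-LFD replicate 3, neither of them called. The WT step was 0.83 without WT CD-HFD replicate 6 and 1.43 without WT CD-LFD replicate 3, and it was not called in either case, nor with DESeq2 (1.67), with the compared groups alone (1.67) or with a clock-gene covariate (1.27). The MlklKO call was lost in 6 of its 7 leave-one-out fits, with values of 1.30 (without MlklKO CD-HFD replicate 1) to 1.98. No difference between genotypes on either choline-deficient diet was called, the largest being 1.31 (SE 0.609) for Ripk3KO against WT on CD-LFD, which was 0.40 without Ripk3KO CD-LFD replicate 3. Vmn2r3 belongs to a large family of similar receptor genes, so reads from a close copy could be counted with it.

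Neither of the tested relatives of Vmn2r3 rose in any of the 15 comparisons. The list of other type 2 receptor genes, with the vomeronasal channel gene Trpc2, held 67 genes of the table, of which 2 passed the filter. Vmn2r20 fell on CD-HFD in WT, from 1.69 to 0.247 CPM (log2 -2.57, SE 0.670, edgeR adjusted p = 0.00156), and in Ripk3KO (-2.46, adjusted p = 0.00667). Vmn2r57 was called in 1 comparison, lower on CD-HFD than on CD-LFD in MlklKO (log2 -2.81, SE 1.03, edgeR adjusted p = 0.0421). That call was lost with DESeq2 and without MlklKO CD-LFD replicate 3 or 4 or MlklKO CD-HFD replicate 1, 2 or 4. None of the 6 nearest genes on chromosome 3 passed the filter. Of 6 macrophage markers, edgeR called 4 higher on CD-LFD in each genotype. On CD-HFD 5 were called higher in each genotype and, in WT, 1 was called lower, Clec4f of resident macrophages, so the markers did not move as one. By Pearson r over libraries the marker Gpnmb had the profile most like Vmn2r3 among 13218 named genes (r = 0.934), while Susd2 was first by Spearman (0.916) and Tmem237 by group means (0.992). The 6 markers summed to 107 to 149 CPM in WT control livers, 162 to 284 CPM on CD-LFD and 846 to 2389 CPM on CD-HFD, and cholangiocyte markers summed to 85.1 to 141, 177 to 397 and 749 to 1241 CPM. Macrophage sums in the knockouts ran from 46.0 to 227 CPM on control diet and from 1189 to 2203 CPM on CD-HFD. The part of either cell type in the Vmn2r3 values was not tested, and in whole liver more cells of a type and more RNA per cell cannot be told apart.

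Chrna4 (ENSMUSG00000027577, chromosome 2) was detected in all 44 libraries, with 6261 reads, and was low in every group fed CD-HFD. WT livers had 10.6 to 87.6 CPM on control diet (median 26.4 CPM), 11.2 to 197 CPM on CD-LFD (median 21.7 CPM) and 1.19 to 2.71 CPM on CD-HFD (median 1.66 CPM). The CD-HFD libraries lay wholly under both other groups, while control and CD-LFD overlapped. The CD-HFD mean was 20.1-fold lower than control (log2 -4.33, SE 0.771) and 30.1-fold lower than CD-LFD (log2 -4.91, SE 0.773). The second was -3.77 without WT CD-LFD replicate 1, the library at 197 CPM. CD-LFD and control differed by 0.58 (SE 0.621), which was not called and was -0.56 without WT CD-LFD replicate 1.

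Chrna4 was also lowest on CD-HFD in both knockouts. Ripk3KO had 2.23 to 34.2 CPM on control diet (median 4.0 CPM), 29.95, 8.42 and 9.28 CPM on CD-LFD, and 1.16, 0.329, 0.349 and 0.256 CPM on CD-HFD. Neither other group overlapped with CD-HFD, whose mean was 17.1-fold lower than control (log2 -4.24, SE 1.12) and 30.3-fold lower than CD-LFD (-5.05, SE 1.17). The first was -3.05 without Ripk3KO control replicate 1 and -4.43 without the 2 doubtful libraries, and the second was -4.25 without Ripk3KO CD-LFD replicate 1. MlklKO had 1.60 to 30.7 CPM on control diet (median 17.4 CPM), 28.2, 8.33, 21.0 and 3.57 CPM on CD-LFD, and 1.39, 0.130 and 0.266 CPM on CD-HFD. Again CD-HFD stood apart, 27.9-fold under control (log2 -4.92, SE 1.26) and 25.6-fold under CD-LFD (-4.82, SE 1.30). Without MlklKO CD-HFD replicate 1, the library with the most Mlkl, these differences were larger, at -6.31 and -6.20. Knockout means of Chrna4 were lower than WT on all 3 diets, with log2 differences of -1.99 to -1.08, none of them called. The Ripk3KO control difference, -1.99 (SE 0.677), was called with library size as the only scaling (-2.16), with no count filter and with the replicate block (-2.52). It was -3.18 without Ripk3KO control replicate 1, and 1 of its 12 leave-one-out fits was called. The CD-HFD difference in Ripk3KO was called with the compared groups alone (-1.92). The CD-LFD differences, -1.75 in Ripk3KO and -1.76 in MlklKO, were -0.61 and -0.63 without WT CD-LFD replicate 1, the library at 197 CPM. The MlklKO difference on CD-HFD, -1.67, was -3.06 without MlklKO CD-HFD replicate 1.

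Per length Chrna4 was at 7.02 CPM/kb in WT control livers, percentile 69.3 of tested genes, and at 0.349 CPM/kb on CD-HFD, percentile 8.42. Of the 6 neuron markers listed, 5 were in the table and 2 passed the filter. They summed to 8.59 to 11.4 CPM in WT control livers and 11.1 to 14.4 CPM on CD-HFD. The Ripk3KO sums were 9.70 to 15.5 CPM on control diet and 14.0 to 18.9 CPM on CD-HFD. Those of MlklKO were 2.89 to 9.61 and 9.18 to 13.4 CPM. The part of neurons in the Chrna4 values was not tested. Other nicotinic receptor subunits differed from Chrna4 and from each other in their values. Chrnb2, the beta subunit that pairs with Chrna4 in brain, fell in WT from 4.82 to 1.59 CPM on CD-HFD (log2 -1.59, SE 0.344, edgeR adjusted p = 0.000190). It fell to 1.52 CPM on CD-LFD as well (-1.67, SE 0.349, adjusted p = 0.000360), a diet on which Chrna4 was not called. In Ripk3KO the CD-HFD fall of Chrnb2 was -1.01 (SE 0.381, adjusted p = 0.0273), a call lost with library size as the only scaling, with no count filter, and without Ripk3KO control replicate 2 or 6 or Ripk3KO CD-HFD replicate 1, 3 or 5. Between CD-HFD and control in MlklKO, Chrnb2 was not called. Chrnb1, the beta subunit of the muscle receptor, rose in all 3 genotypes: in WT from 0.203 to 5.57 CPM on CD-LFD (log2 4.76, SE 0.595, adjusted p = 8.85e-08) and 11.1 CPM on CD-HFD (5.79, SE 0.563, adjusted p = 3.43e-11). Its CD-HFD rise was 3.80 in Ripk3KO (SE 0.452, adjusted p = 5.38e-09) and 3.95 in MlklKO (SE 0.475, adjusted p = 6.37e-09). Of the 15 other subunits listed, 10 were in the table and 3 passed the filter.

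**Figure D3:**
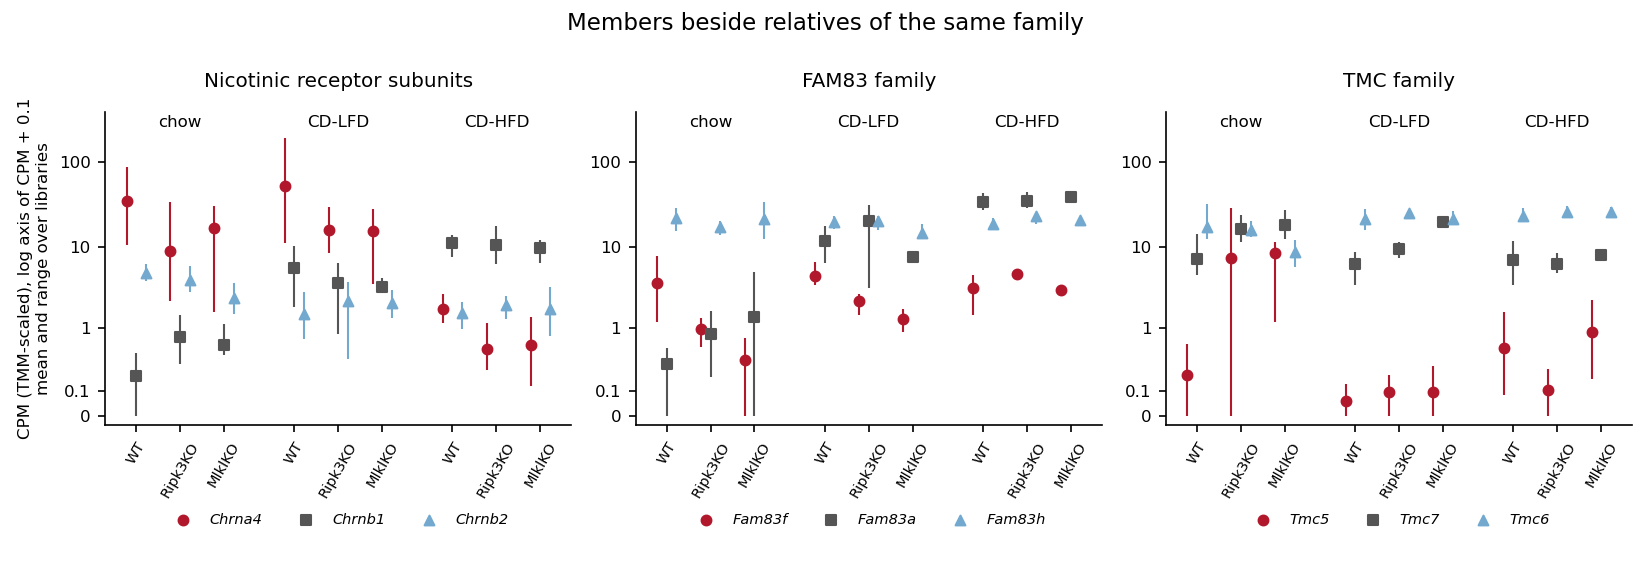
Mean level (points) and range over libraries (lines) of Chrna4, Fam83f and Tmc5 (red) beside 2 relatives each, as TMM-scaled CPM on a log axis of CPM + 0.1, by diet and genotype; chow is the control diet. On CD-HFD Chrna4 is low where Chrnb1 is high, Fam83a is higher on both choline-deficient diets in every genotype, and Tmc7 is higher in knockout than in WT mice on chow, as Tmc5 is. Distances between genes are not corrected for gene length.

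Atp2b2 (ENSMUSG00000030302, chromosome 6) was high in one group of the 9, WT mice on CD-LFD. Levels there were 8.15 to 27.7 CPM with a median of 12.3 CPM, against 0 to 3.42 CPM (median 1.49 CPM) on control diet and 0.541 to 3.49 CPM (median 2.50 CPM) on CD-HFD. No WT CD-LFD library overlapped with any library of the other WT groups. The CD-LFD mean of 14.4 CPM was 10.5-fold higher than control (log2 3.35, SE 0.518) and 6.17-fold higher than CD-HFD, which differed from it by -2.61 (SE 0.448). CD-HFD and control differed by 0.75 (SE 0.552), which was not called.

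Both knockouts were low in Atp2b2 on CD-LFD. Ripk3KO libraries had 0.624, 3.37 and 3.85 CPM and MlklKO libraries 2.20, 2.08, 5.12 and 0.446 CPM, all of them under the lowest WT library. The differences from WT were -2.38 (SE 0.591) in Ripk3KO and -2.56 (SE 0.531) in MlklKO, which made the means 5.51-fold and 5.84-fold lower. The Ripk3KO call was lost without WT CD-LFD replicate 1 (-2.10) and without Ripk3KO CD-LFD replicate 1 (-1.98), 2 (-2.51) or 3 (-2.88). The CD-LFD difference from control was 1.35 (SE 0.644) in Ripk3KO and 1.16 (SE 0.597) in MlklKO, not called in either, and these were 0.88 and 0.59 without replicate 3 of the CD-LFD group. The first was called with library size as the only scaling (1.66), and the second with the clock-gene covariate (1.65) and in 1 of its 10 leave-one-out fits. The difference of these values from that of WT was -2.0 (SE 0.861) and -2.19 (SE 0.816), also not called. Some other calcium pumps changed with diet in all genotypes. Atp2a3, an endoplasmic reticulum pump common in blood cells, rose on CD-HFD by 1.85 in WT (edgeR adjusted p = 1.18e-05), 2.31 in Ripk3KO (adjusted p = 5.64e-07) and 2.58 in MlklKO (adjusted p = 3.69e-07). Atp2a2, the pump of the hepatocyte endoplasmic reticulum, fell on CD-HFD by 1.71 in Ripk3KO (adjusted p = 5.21e-06) and 1.67 in MlklKO (adjusted p = 4.28e-05). In WT it fell by 0.70 (adjusted p = 0.0166), which was -0.18 and not called with library size as the only scaling. Atp2b1, the common plasma membrane pump, was at 48.9 CPM in WT control and 63.6 CPM in WT CD-HFD livers (log2 0.38, adjusted p = 0.0235), a call lost with the clock covariate described next and without WT control replicate 1 or 3 or WT CD-HFD replicate 5.

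Clock genes also differed between these groups. The log2 ratio of Arntl to Dbp, clock genes that peak at opposite times of day, was -2.66 to -0.28 in WT CD-LFD livers and -7.40 to -3.67 in every knockout library. WT CD-HFD livers had -6.24 to -2.12, and WT control livers spread from -7.88 to 2.69. The group with high Atp2b2 had clock ratios that no knockout library shared. WT CD-HFD replicate 3, whose ratio of -2.12 lay within that group's range, had 3.49 CPM of Atp2b2. WT control replicates 1, 3, 5 and 6, with ratios of 0.10 to 2.69, had 1.19 to 3.42 CPM. WT control replicates 2 and 4, with ratios of -5.79 and -7.88, had no read. With the ratio as a covariate the WT rise on CD-LFD was 3.67 and still called, while the knockout differences from WT on CD-LFD were -1.04 and -1.31 and not called. The step from CD-LFD to CD-HFD in WT was -1.68 and not called, and CD-HFD against control in WT became 1.99 and was called. The labels give no time of collection, and its part in these values was not tested otherwise.

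**Figure D4:**
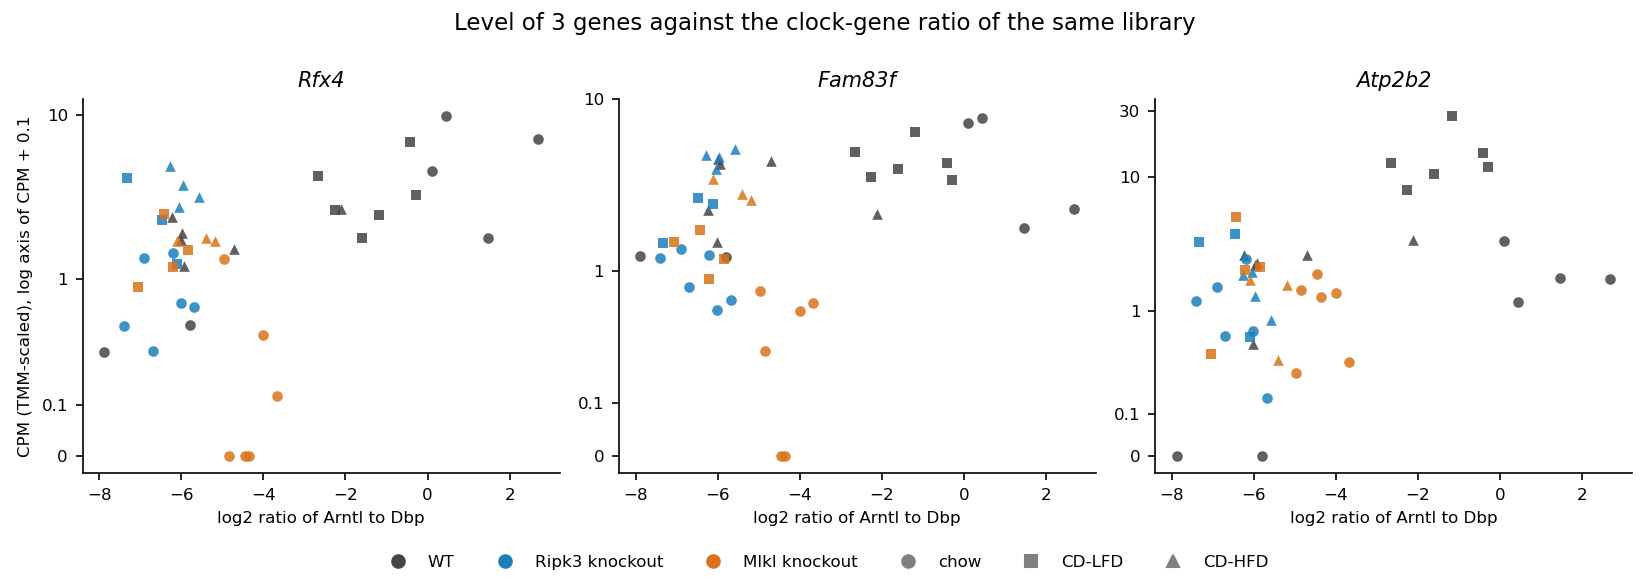
Level of Rfx4, Fam83f and Atp2b2 (TMM-scaled CPM, log axis of CPM + 0.1) against the log2 ratio of Arntl to Dbp in the same library; colour gives genotype and shape gives diet (chow is the control diet). Knockout libraries all lie between -7.40 and -3.67 on the horizontal axis, and the WT chow libraries are split, 2 at -7.88 and -5.79 and 4 at 0.10 to 2.69.

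Fam83f and Rfx4 shared a pattern: low in knockout livers on control diet, and within or above the WT range on CD-HFD. Fam83f (ENSMUSG00000022408, chromosome 15, 1215 reads in 42 libraries) had 1.22 to 7.82 CPM in WT control livers, with a median of 2.08 CPM. Ripk3KO control livers had 0.558 to 1.36 CPM (median 0.994 CPM) and MlklKO control livers 0 to 0.745 CPM (median 0.421 CPM). The MlklKO group lay wholly under WT, and the Ripk3KO group overlapped with it at the low end. The means were 3.74-fold lower in Ripk3KO (log2 -2.0, SE 0.422) and 9.82-fold lower in MlklKO (-3.16, SE 0.466).

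On CD-HFD the WT, Ripk3KO and MlklKO levels of Fam83f were closer to each other. WT had 1.49 to 4.54 CPM (median 3.29 CPM), Ripk3KO 3.99, 4.71, 4.80 and 5.20 CPM, and MlklKO 3.48, 2.87 and 2.66 CPM. The knockouts overlapped with WT, with differences of 0.54 (SE 0.363) and -0.11 (SE 0.425) that were not called. Within each knockout no CD-HFD library was as low as any control library, with means higher 4.83-fold in Ripk3KO (log2 2.31, SE 0.427) and 8.13-fold in MlklKO (2.82, SE 0.522). WT differed between these diets by -0.22 (SE 0.351), not called. CD-LFD lay in between: 2.50, 1.47 and 2.72 CPM in Ripk3KO (log2 1.28 over control, SE 0.496, not called) and 1.19, 0.893, 1.76 and 1.49 CPM in MlklKO (1.65, SE 0.538, called). The Ripk3KO value of 1.28 was called under 6 alternative settings, at 1.28 to 1.60. WT CD-LFD livers had 3.46 to 6.55 CPM (median 4.16 CPM), above all knockout libraries on that diet, with differences from WT of -0.96 in Ripk3KO (SE 0.443, not called) and -1.75 in MlklKO (SE 0.424, called). The MlklKO call was lost without MlklKO CD-LFD replicate 1 (-1.69) or 2 (-1.62).

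Rfx4 (ENSMUSG00000020037, chromosome 10, 1274 reads in 41 libraries) had the widest WT control spread of this pair, 0.307 to 9.86 CPM with a median of 3.23 CPM. Ripk3KO control livers had 0.315 to 1.46 CPM (median 0.674 CPM). In MlklKO control livers 3 of 6 libraries had no read and the highest, replicate 6, had 1.34 CPM. Both knockout groups overlapped with WT, because WT replicates 2 and 4 had 0.488 and 0.307 CPM. The means were 4.89-fold lower in Ripk3KO (log2 -2.41, SE 0.554) and 12.9-fold lower in MlklKO (-3.64, SE 0.620). Without MlklKO control replicate 6 the second was -4.97.

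On CD-HFD Rfx4 was at 1.21 to 2.72 CPM in WT (median 1.85 CPM), at 2.83, 3.83, 4.98 and 3.24 CPM in Ripk3KO and at 1.74, 1.82 and 1.73 CPM in MlklKO. The Ripk3KO libraries all lay above WT (log2 0.96, SE 0.500) and the MlklKO libraries within it (-0.12, SE 0.610), and neither difference was called. Against their own controls the knockouts were higher without overlap, 4.49-fold in Ripk3KO (log2 2.19, SE 0.578) and 5.63-fold in MlklKO (2.34, SE 0.752). On CD-LFD the levels were 1.25, 4.21 and 2.34 CPM in Ripk3KO (log2 1.65 over control, SE 0.656, not called) and 1.52, 1.19, 2.56 and 0.892 CPM in MlklKO (2.14, SE 0.712, called). The Ripk3KO value of 1.65 was called with library size as the only scaling (1.94), with DESeq2 (1.70), with the clock covariate (1.74) and in 2 of its 9 leave-one-out fits. The MlklKO differences were 3.67 on CD-HFD and 3.47 on CD-LFD without MlklKO control replicate 6. The CD-LFD call was lost without MlklKO CD-LFD replicate 3 (1.82). WT CD-LFD livers had 1.81 to 6.90 CPM (median 3.02 CPM), -0.22 from control (SE 0.448) and not called.

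In WT the CD-HFD difference of Rfx4 from control was -1.18 (SE 0.471). It was called, but not with library size as the only scaling (-0.68), with DESeq2 (-1.06), with the compared groups alone (-1.16) or with the replicate number as a block (-1.02). Leaving out WT control replicate 1 (-0.95) or 3 (-0.72), or WT CD-HFD replicate 1 (-1.16), 4 (-1.18), 5 (-1.07) or 6 (-1.12), also ended the call. With the clock ratio as a covariate it was 0.32, higher instead of lower, and not called. The WT control libraries with little Rfx4, replicates 2 and 4, were those with clock ratios of -5.79 and -7.88. They had 1.22 and 1.23 CPM of Fam83f, the lowest WT control values of that gene too. The other WT control libraries, with ratios of 0.10 to 2.69, had 1.82 to 9.86 CPM of Rfx4 and 1.82 to 7.82 CPM of Fam83f.

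The differences of the knockouts' CD-HFD effect from that of WT were called for both genes. They were 2.53 (SE 0.556) in Ripk3KO and 3.05 (SE 0.634) in MlklKO for Fam83f, and 3.37 (SE 0.747) and 3.52 (SE 0.886) for Rfx4. Over all 8 genes such a difference was called for 3 in Ripk3KO (0.478% of tested genes) and 2 in MlklKO (4.11%) on CD-HFD. On CD-LFD it was called for none in Ripk3KO (0.0269%) or MlklKO (8.45%). With the clock ratio as a covariate the MlklKO value of Fam83f, 2.67 (SE 0.675), was still called. The Ripk3KO value of Fam83f, 1.96 (SE 0.665), and both values of Rfx4, 1.74 (SE 0.873) in Ripk3KO and 2.35 (SE 0.899) in MlklKO, were not. On CD-LFD the covariate added a call, that of Rfx4 in MlklKO, at 2.55 (SE 0.765) against 2.35 (SE 0.845) without it. In the same fit the Ripk3KO control difference from WT was -1.36 for Fam83f and -0.52 for Rfx4, neither of them called, and the MlklKO difference was -2.75 and -2.34, both called. On CD-LFD the MlklKO difference of Fam83f was then -1.20 and not called. Without MlklKO control replicate 6, and with the WT side kept from the main fit, the MlklKO value of Rfx4 was 4.85 on CD-HFD and 3.69 on CD-LFD.

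Across the 44 libraries Fam83f and Rfx4 had a Pearson r of 0.840 in log2 CPM, and 0.574 after group means were removed. These libraries share their groups and their range of depth, and the r is given as a description. Rfx4 went with Dct in the opposite direction within groups (r = -0.610), and with Atp2b2 in the same direction (0.463). Fam83f lies over an antisense gene, A430088P11Rik, whose exons overlap its own and which had 58 reads, and whether counting used strand is not given in the sources used here. Fam83a, a paralog found at high levels in several carcinomas, rose from 0.316 CPM in WT control to 11.8 CPM on CD-LFD (log2 5.08, SE 0.618, edgeR adjusted p = 5.30e-08) and 34.2 CPM on CD-HFD (6.62, SE 0.584, adjusted p = 2.95e-12). On CD-HFD it rose by 5.33 in Ripk3KO (SE 0.502, adjusted p = 1.73e-11) and 4.75 in MlklKO (SE 0.478, adjusted p = 8.92e-11). Fam83h, a paralog known from tooth enamel, had group means of 14.5 to 22.9 CPM. Rfx3, a factor of ciliated cells, fell in WT on CD-HFD from 3.61 to 1.98 CPM (log2 -0.86, SE 0.244, adjusted p = 0.00349), a call lost with library size as the only scaling and with the clock covariate. Rfx1, which is made in many tissues, was higher in MlklKO than WT on control diet (log2 0.85, SE 0.200, adjusted p = 0.00155), the reverse of Rfx4. Rfx7 was lower there, as Rfx4 was, by -0.53 (SE 0.165, adjusted p = 0.0152), a call lost with no count filter, with the compared groups alone, with the clock covariate and without WT control replicate 5 or 6. Rfxank, a partner of Rfx5 in MHC class II expression, was lower in MlklKO than WT on CD-LFD (-1.07, SE 0.287, adjusted p = 0.0327), a call lost with the replicate block, with the clock covariate (0.07) and without WT CD-LFD replicate 1 or 6 or any 1 of the 4 MlklKO CD-LFD libraries.

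Tmc5 (ENSMUSG00000030650, chromosome 7, 607 reads in 32 libraries) was the gene that set knockouts above WT on control diet. WT control livers had 4 reads in all, at 0 to 0.614 CPM with a median of 0.0850 CPM. Ripk3KO control livers ran from 0 to 28.8 CPM with a median of 2.41 CPM, the highest values being 9.76 CPM in replicate 5 and 28.8 CPM in replicate 6. MlklKO control livers had 8.53 to 11.3 CPM in 5 libraries and 1.19 CPM in replicate 6. The MlklKO group lay wholly above WT, while Ripk3KO overlapped through replicates 1 and 2, at 0.388 and 0 CPM. Means were 35.3-fold higher in Ripk3KO (log2 5.42, SE 1.03) and 41.0-fold higher in MlklKO (5.66, SE 1.02). The Ripk3KO value was 4.23 without Ripk3KO control replicate 6 and 5.29 without the 2 doubtful libraries. Without WT control replicate 4 the differences were 6.16 and 6.40.

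On the choline-deficient diets Tmc5 was low in both knockouts, and none of the 4 differences from WT was called. Ripk3KO had 0.208, 0 and 0.0754 CPM on CD-LFD and 0.166, 0, 0.262 and 0 CPM on CD-HFD. Against the 2 CD-LFD reads the control mean was 83.3-fold higher (exact Poisson 95% interval 23.1 to 688), and it was 68.2-fold higher than on CD-HFD. The fitted differences were -6.13 (SE 1.36) and -5.91 (SE 1.10), or -4.94 and -4.73 without Ripk3KO control replicate 6, and the second was -7.10 without Ripk3KO CD-HFD replicate 3. Without the 2 doubtful libraries they were -6.00 and -5.79. MlklKO had 0.0847, 0.298, 0 and 0 CPM on CD-LFD and 0.174, 0.261 and 2.26 CPM on CD-HFD. Its CD-LFD group stood apart from control, 88.9-fold lower on 3 reads (exact Poisson 95% interval 30.4 to 431; log2 -6.27, SE 1.14), or -7.30 without MlklKO CD-LFD replicate 2. The CD-HFD group overlapped with control through replicate 4 at 2.26 CPM, with a difference of -3.16 (SE 0.932), or -5.17 without that library and -2.76 without the 2 doubtful libraries. WT had 0 to 0.139 CPM on CD-LFD and 0.0804 to 1.63 CPM on CD-HFD, and its diet differences of -1.22 (SE 1.70) and 1.73 (SE 1.33) from control were not called. They were -0.49 and 2.47 without WT control replicate 4, and the second was 1.01 without WT CD-HFD replicate 3. The difference of 2.95 (SE 1.16) between CD-HFD and CD-LFD was not called, and was 2.23 without WT CD-HFD replicate 3. It was called with library size as the only scaling (3.24), with DESeq2 (3.23) and in 1 of its 12 leave-one-out fits. The Ripk3KO effect of CD-HFD differed from that of WT by -7.65 (SE 1.69), which was called. It was -7.79 (SE 1.90) and not called with the clock covariate, and -6.46 to -8.83 when single libraries were left out. The MlklKO effect differed from that of WT by -4.89 (SE 1.57), not called, and by -6.90 (without MlklKO CD-HFD replicate 4) to -4.17 (without WT CD-HFD replicate 3) with single libraries left out.

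Tmc7, a paralog among the nearest genes to Tmc5 on chromosome 7, moved in the same direction on control diet by less. It was higher in control-diet knockouts than in WT, at 16.3 CPM in Ripk3KO (log2 1.18, SE 0.266, edgeR adjusted p = 0.00556) and 18.3 CPM in MlklKO (1.35, SE 0.265, adjusted p = 0.000202) against 7.11 CPM. The Ripk3KO call was lost with the compared groups alone, with the clock covariate and without WT control replicates 5 and 6. On CD-HFD it fell by 1.36 in Ripk3KO (SE 0.290, adjusted p = 0.000164) and by 1.21 in MlklKO (SE 0.321, adjusted p = 0.00198), the latter not called with library size as the only scaling. Unlike Tmc5 it was still high in MlklKO on CD-LFD, at 19.7 against 6.27 CPM in WT (log2 1.65, SE 0.273, adjusted p = 0.000194), a call lost with the clock covariate. Ccp110, a further neighbour of Tmc5 that acts at the centriole, was also higher in control-diet knockouts than in WT, by 0.74 in Ripk3KO (adjusted p = 0.00651, a call lost with the compared groups alone) and 0.66 in MlklKO (adjusted p = 0.00335). Tmc6, a paralog on another chromosome that lymphocytes make, went the other way in MlklKO: lower than WT on control diet (log2 -0.98, SE 0.191, adjusted p = 0.000181) and higher on CD-HFD than on control diet (1.60, SE 0.214, adjusted p = 6.63e-08).

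**Figure D5:**
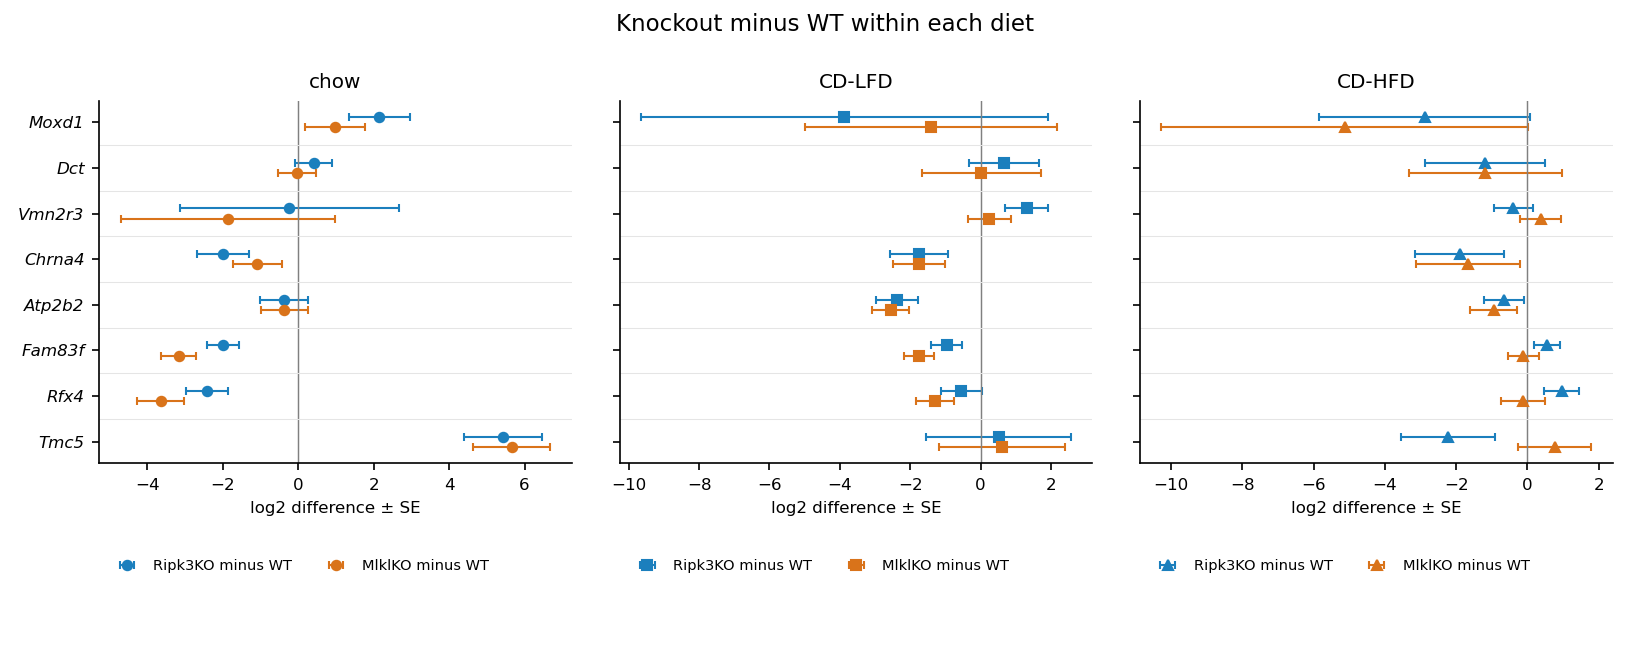
Log2 difference ± SE of Ripk3KO minus WT (blue) and MlklKO minus WT (orange) for each gene within each diet; chow is the control diet. On chow Fam83f and Rfx4 lie left of 0 and Tmc5 right of 0 for both knockouts, on CD-LFD Atp2b2 lies at -2.38 and -2.56, and on CD-HFD no difference was called.

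Other genes with similar profiles were listed by Pearson r of log2 CPM over the 44 libraries, among 13218 named tested genes, as a description of libraries that share groups and depth. For Moxd1 they were Cd163 (r = 0.878), a scavenger receptor of resident macrophages, Acpp (0.871) and Cyp2c29 (0.861), a hepatocyte cytochrome P450. For Dct they were Mbl2 (0.912), a lectin secreted by hepatocytes, Cyp2c29 (0.907) and Tm7sf2 (0.906), a sterol reductase. So Cyp2c29 stood in both lists, and Moxd1 and Dct had an r of 0.818 with each other, falling to 0.15 within groups. For Vmn2r3, Gpnmb was followed by Uap1l1 (0.931) and the spindle gene Tpx2 (0.928). Chrna4 was nearest to Tmie (0.840), Hamp2 (0.837) and Gckr (0.835), the regulator of glucokinase. Atp2b2 had the lowest values of the 8, with Slc17a4 (0.758), Fbxo6 (0.746) and Pter (0.737). Fam83f was nearest to Rxrg (0.840), Zfp608 (0.828) and Snapin (0.827), and Rfx4 to Trmt9b (0.882), Pcif1 (0.857) and Nlrx1 (0.837). Tmc5 was nearest to Cpne8 (0.873), Fndc3b (0.860) and Serpina10 (0.852). Ranked by Spearman instead, all 3 genes were kept for Chrna4, 2 for Rfx4, 1 each for Atp2b2 and Fam83f, and none for Moxd1, Dct, Vmn2r3 or Tmc5.

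All 118 relatives of the 8 genes that were in the table (of 129 listed) had some reads, and 28 passed the filter. Of those 28, 17 were called between CD-HFD and control in WT, 11 higher and 6 lower, with a median log2 difference of 0.03 against -0.07 over all tested genes, of which 47.7% were called. In Ripk3KO 14 were called (7 higher, 7 lower) with a median of 0.25 against -0.05, and in MlklKO 14 (8 higher, 6 lower) with a median of 0.10 against -0.04. On CD-LFD the counts were 6 in WT, 6 in Ripk3KO and 9 in MlklKO, against 27.7%, 24.1% and 37.9% of all tested genes. Between knockout and WT, edgeR called 1 relative in Ripk3KO and 9 in MlklKO on control diet (4.47% and 27.1% of all tested genes), and 2 in MlklKO on CD-LFD (2.56%). It called 0 in Ripk3KO on CD-LFD, where 4 had an unadjusted p under 0.05, and 0 on CD-HFD, where 0 did in Ripk3KO and 3 in MlklKO.

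The 3 nearest genes on each side of each member gave 48 neighbours, of which 22 passed the filter. Between CD-HFD and control 8 were called in WT (4 higher, 4 lower), 8 in Ripk3KO (4 and 4) and 11 in MlklKO (5 and 6), with medians of 0.07, -0.27 and -0.28. Over all tested genes 47.7%, 46.3% and 45.2% were called, with medians of -0.07, -0.05 and -0.04. Next to Moxd1, the vesicle fusion gene Stx7 rose on CD-HFD in WT by 0.64 (SE 0.134, edgeR adjusted p = 0.000120), in Ripk3KO by 0.71 (adjusted p = 0.000102) and in MlklKO by 1.04 (adjusted p = 6.79e-07), where Moxd1 was lost. Next to Chrna4, the elongation factor gene Eef1a2 of muscle and neurons had no read in any control library of the 3 genotypes. On CD-HFD its means were 0.975 CPM in WT (edgeR adjusted p = 1.72e-05), 1.43 CPM in Ripk3KO (adjusted p = 1.43e-06) and 1.05 CPM in MlklKO (adjusted p = 1.36e-05), where Chrna4 was low. Next to Fam83f, the T cell adaptor gene Grap2 rose on CD-HFD in WT, where Fam83f did not differ by a call, from 0.276 to 3.07 CPM (log2 3.17, SE 0.551, adjusted p = 7.50e-06). Neighbours that moved with their member in WT on CD-HFD included Tgds, a dehydratase gene next to Dct that fell from 28.6 to 16.1 CPM (log2 -0.84, SE 0.179, edgeR adjusted p = 0.000151). Col20a1, a collagen gene next to Chrna4, fell there from 3.33 to 1.23 CPM (-1.42, SE 0.418, adjusted p = 0.00465). Both of these calls were lost with library size as the only scaling, at -0.34 and -0.94. Tmc7 and Ccp110, next to Tmc5 and described above, were like it higher in control-diet knockouts than in WT. Tmc7 also fell with Tmc5 on CD-HFD in both knockouts.

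Motifs were looked for in 9 RefSeq windows of 300 bases (250 before the start and 50 after it), which cover 6 of the 8 genes, Fam83f and Tmc5 having none in the table. The STAT5 motif TTCNNNGAA was found in Moxd1 alone and occurs in 8.3% of all 32851 windows. The D-box TTANGTAA, the site of Dbp and its relatives, occurs in 2.32% of windows and was found at -57 in 1 of the 3 Atp2b2 windows. The E-box CACGTG (7.15% of windows) and the AP-1 motif TGANTCA (7.81%) were in none of the 9 windows. The CCAAT box, by its name, was in Moxd1, Dct and 1 Rfx4 window (37.4% of all windows), and the HNF4 core site CAAAG in Dct, 1 Atp2b2 and 1 Rfx4 window (53.9%). Both strands were searched, and no 2 matches overlapped. A match is a description of letters and not a bound site.

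Other cell types and sex-biased liver genes moved with the same diets as the members. Macrophage and cholangiocyte sums are given above. Of 4 markers of ciliated cells, an airway and duct cell type in which Rfx factors act, 1 passed the filter. The markers summed to at most 1.36 CPM in any WT control library and to 7.57 to 19.9 CPM on WT CD-HFD. In Ripk3KO the sum was at most 0.481 CPM on control diet and 7.77 to 14.3 CPM on CD-HFD. In MlklKO it was at most 1.30 CPM and 9.04 to 14.9 CPM. Rfx4 was higher on CD-HFD than on control diet in both knockouts and not in WT. The 7 male-biased liver genes were all called lower on CD-HFD in WT, their summed level having a median of 10770 CPM on control diet and 4846 CPM on CD-HFD, and all 7 also in MlklKO (6206 to 2897 CPM) and 6 of 7 in Ripk3KO (8310 to 4353 CPM). Moxd1 and Dct were low on the same diet. On CD-LFD, where Moxd1 and Dct were also low, the male-biased sum had medians of 7399 CPM in WT, 9356 CPM in Ripk3KO and 10930 CPM in MlklKO, of which the last 2 were above their control medians. By gene, 5 of the 7 were called lower on that diet in WT, 3 lower and 0 higher in Ripk3KO, and 1 lower and 1 higher in MlklKO. Of the 6 tested female-biased genes, 3 were called higher and 1 lower on CD-HFD in WT, 3 higher in Ripk3KO and 4 higher in MlklKO. Of Xist and 4 Y-linked genes, 4 were called lower on CD-HFD in each genotype. In WT the summed level of Xist and these Y-linked genes had medians of 177 CPM on control diet and 90.3 CPM on CD-HFD. This sum mixes genes that mark opposite sexes, so it does not tell the sex of a library. Scaled by library total alone, the Y-linked gene Ddx3y was at 33.7 CPM or more in every library. It was at 50.1 CPM in Ripk3KO CD-LFD replicate 3, the library that stood apart in Xist. The hepatocyte sum had medians of 120500 CPM in WT control, 84040 CPM on CD-LFD and 59810 CPM on CD-HFD livers. The part of cell makeup in the members' values was not tested further.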

How the data were processed

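The table holds raw counts per Ensembl gene in 44 mouse liver libraries, deposited by the authors. The submitters' processing notes name FastQC, STAR, HTSeq, edgeR, limma and the build GRCm39 (mm39). A strand-directional kit was used, per the labels' protocols; whether counting used strand is not given in the sources used here. All deposited columns were used. Genes without a symbol (876) held 0.0838% of counts.

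The counts were fitted here with edgeR 4.0.16 (limma 3.58.1, R 4.3.3), on all 44 libraries with 1 mean per group: filterByExpr with a minimum count of 10, TMM scaling, quasi-likelihood F tests and Benjamini-Hochberg adjustment over all 14862 tested genes, threshold 0.05. The fit was tested on simulated data. CPM are TMM-scaled; the prior count for log2 CPM was 2. Depth limits precision for genes of a few reads. The 8 genes and the lists were chosen with earlier results of these data known. Genes named are the 8, their tested relatives, the 3 nearest genes on each side, and the 3 with the highest Pearson r. Alternatives were DESeq2 1.42.0, RLE factors, scaling by library size alone, testing without a count filter, the compared groups alone, a replicate block, the clock ratio as a covariate, leaving out WT control replicates 5 and 6, and leaving out each library. For a difference of differences, leaving out a library refitted the side that held it, and the other side was kept from the main fit. Promoters are RefSeq, build GRCm38.p6, used for sequence only.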

Additional observations from a re-analysis of the deposited data

Results flagged for a closer look

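Over the 8 genes, in groups of 4 to 6 libraries with more than 3 reads of the gene, 5 of 48 had a single library far from the rest of its group by Dixon's criterion, which chance meets in about 1 in 20. Moxd1 was at 1.99 CPM in WT CD-LFD replicate 6, with the others at 0 to 0.139 CPM, and at 2.68 CPM in WT CD-HFD replicate 6, with the others at 0 to 0.0804 CPM. Chrna4 was at 1.16 CPM in Ripk3KO CD-HFD replicate 1, with the others at 0.256 to 0.349 CPM. Atp2b2 was at 0.541 CPM in WT CD-HFD replicate 1, with the others at 2.27 to 3.49 CPM. Tmc5 was at 1.19 CPM in MlklKO control replicate 6, with the others at 8.53 to 11.3 CPM.

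The effect of CD-HFD against control differed between knockout and WT for 3 genes, by the difference of differences in the edgeR fit. For Fam83f it was 2.53 in Ripk3KO and 3.05 in MlklKO, and for Rfx4 it was 3.37 and 3.52. For Tmc5 it was -7.65 in Ripk3KO and, not called, -4.89 in MlklKO. With the clock ratio as a covariate they were 1.96 and 2.67 for Fam83f, 1.74 and 2.35 for Rfx4 and -7.79 for Tmc5, of which the MlklKO value of Fam83f was still called. These genes were chosen on the same libraries, so the values are a description.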

How the results depend on the processing

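Of 2241 values recomputed for the 120 differences of the 8 genes, 2079 kept direction and call, 36 lost the call, 43 gained one, in 82 a difference that was not called changed sign, and 1 called difference reversed, Rfx4 in WT on CD-HFD at 0.32 with the clock ratio as covariate. Library size as the only scaling moved the median log2 difference of all genes on CD-HFD from -0.07 to 0.43 in WT, -0.05 to 0.48 in Ripk3KO and -0.04 to 0.49 in MlklKO, and turned the direction of no called member. It gave 13 called neighbours in WT on CD-HFD (8 as reported, and so for other counts in parentheses), 13 relatives (6) and 8 neighbours (5) in WT on CD-LFD, and 7 members (4) in Ripk3KO on CD-LFD. With the compared groups alone, which tests fewer genes, 11 relatives (17) and 5 neighbours (8) were called in WT on CD-HFD, 2 members (4) and 0 neighbours (5) in WT on CD-LFD, 3 neighbours (6) in Ripk3KO on CD-LFD and 5 neighbours (11) in MlklKO on CD-HFD. With no count filter 3 neighbours (5) were called in WT and 5 (9) in MlklKO on CD-LFD, and DESeq2 called 8 in WT. Leaving out WT control replicates 5 and 6 gave 13 relatives (6) in WT on CD-LFD. The causes were not tested. Without single libraries the ranges were 4 to 12 relatives and 3 to 6 neighbours in WT, 3 to 7 and 2 to 6 in Ripk3KO and 5 to 11 neighbours in MlklKO on CD-LFD, and 7 to 12 neighbours in MlklKO on CD-HFD. Replicate numbers did not pair libraries: same-numbered libraries of other groups had a median r of -0.011 (-0.349 to 0.545, 146 pairs) in their deviations. With the replicate number as a block, 4, 7 and 7 members were called on CD-HFD in WT, Ripk3KO and MlklKO, against 47.5%, 47.2% and 47.5% of all tested genes. Leaving out the 2 doubtful libraries was chosen after seeing the data.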
